A study of Hydra vulgaris with 99 samples.

Results

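The 63 transcript loci described here were chosen from 25879 loci of the freshwater polyp Hydra vulgaris because their RNA was higher by 2 h after section than at 0 h, whichever end the tissue was going to regenerate. Levels at 0 h and at every later time entered the choice, so the rise itself is given as a description with no test. Tests below that use any of these levels describe the chosen loci and are not independent of the choice; the comparisons of heads and feet with intact animals use none of them, apart from the limit on head against foot. The level L of a locus in a group of 3 libraries was log2 of the mean CPM plus 1, where CPM is the reads of the locus scaled by the library's total, R was L at a later time minus L at 0 h in one regenerating series, and S was the mean R of the 3 series. A locus was taken when S reached its highest value at 0.5, 1 or 2 h, when that peak S was at least 0.8, when R was at least 0.4 in each of the 3 series at the peak, when the mean L at the peak was at least 2, and when homeostatic head and foot differed by less than 2 in L. Of the 4564 loci that peaked by 2 h with a mean L of at least 2 there, 71 reached a peak S of 0.8, 67 of these had all 3 values of R at 0.4 or above, and 63 of these passed the limit between head and foot. The last loci inside had a peak S of 0.82, 0.82 and 0.82, and the first loci outside had 0.78, 0.78 and 0.78. The same thresholds would take 100 loci with a peak at 4 h and 62 with a peak at 8 h. Loci are numbered below by peak S, from rank 1 to rank 63.

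The libraries were made from polyA RNA of the strain Jussy, each from tissue of 20 to 25 pooled, untreated animals. The regenerating series were tips that regenerate the basal end after a section at the 50% level of the body axis (mid-gastric), tips that regenerate the apical end after the same section, and tips that regenerate the apical end after a section at the 80% level (decapitation). Each series has 10 times: the moment of section (0 h), then 0.5, 1 and 2 h, then 4 and 8 h, and last 16, 24, 36 and 48 h. Homeostatic tissue came from heads, from feet (basal disk with the lower peduncle) and from intact animals. Each of the 33 groups had 3 biological replicates, A, B and C. In such bulk samples, fewer cells of a type and less RNA per cell cannot be told apart.

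Hydra replaces a lost head or foot within days. As background, injury in Hydra is known to set off reactive oxygen species, calcium and MAP kinase signalling within minutes, and these act on transcription factors that are already in the cell. Genes that answer first, without the need for new protein, are called immediate early genes, and in many animals they include the AP-1 and Egr transcription factors. Whether any of the 63 loci is such a gene cannot be read from the files used here. The files give each locus by an identifier alone, and no identifier matched the RefSeq gene table, so no gene name, role or sequence is given, and the labelled tissues were not checked against marker genes. A locus is therefore described by its rank, and 4 identifiers are printed.

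The 99 libraries held 26401348 to 54273942 reads, so 1 CPM stood for 26.4 to 54.3 reads. Replicate C at 4 h stood apart at these loci: the mean log2(CPM + 1) over the 63 loci was 3.68, 3.83 and 3.80 in replicate C of the basal 50%, apical 50% and apical 80% series, against 3.05 to 3.52, 3.08 to 3.23 and 2.87 to 2.91 in replicates A and B. Replicate C was also the lowest of the 3 at 0 h in each series, at 2.30, 2.40 and 2.33, where the other replicates lay between 2.50 and 2.87. The labels do not state whether a letter marks material collected together. Deviations from the group mean were shared between series: over 30 libraries a series, the replicates of one locus and time correlated across series with a median Pearson r of 0.57 for the 63 loci and 0.51 for the 11663 loci with a mean L of at least 2 over all regenerating groups. These points share a time and a letter.

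**Figure D1:**
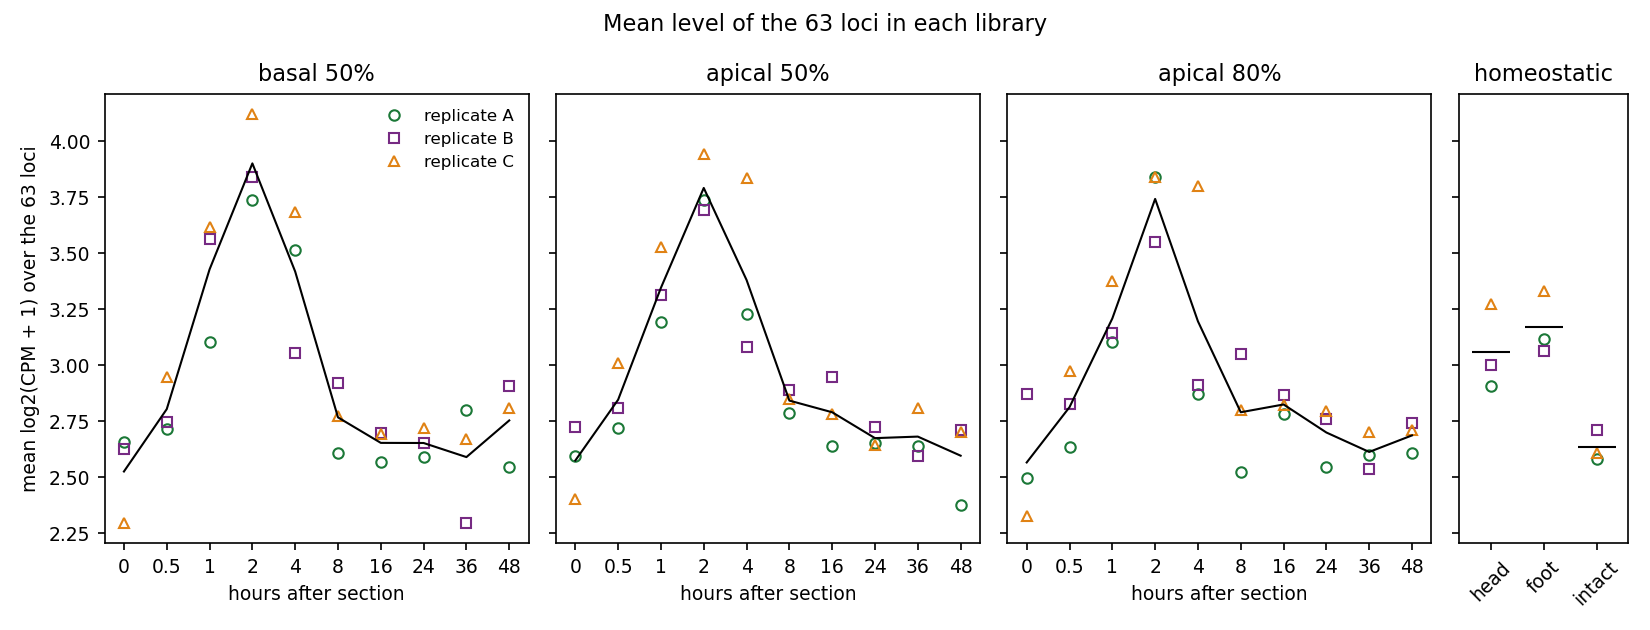
Mean log2(CPM + 1) over the 63 loci (vertical axis) in each of the 99 libraries, by hours after section in the 3 regenerating series and in homeostatic head, foot and intact animals. Each marker is a library, and the line or bar is the mean of the 3 replicates. The highest means are at 2 h, 3.90, 3.79 and 3.74, and replicate C at 4 h lies above replicates A and B in every series.

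The loci were late within the chosen window. Of the 63 loci, 53 had their peak at 2 h, 7 loci at 1 h and 3 loci at 0.5 h. Over the 63 loci the median S was 0.19, 0.63 and 1.05 at the first 3 later times, 0.71 at 4 h and 0.06 at 8 h, and it lay between 0.05 and 0.13 from 16 to 48 h. Over the 11609 loci with a mean L of at least 2 over the groups at 0.5, 1 and 2 h, the median S stayed between -0.03 and 0.06 at each of these times. Among the 53 loci with a peak at 2 h, an S of at least 0.4 was found in 6 at 0.5 h and in 37 at 1 h, before the peak, and in 39 at 4 h and in 12 at 8 h, after it.

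The rise was short in most loci. S came down to 50% of its peak or less soon after it: 24 loci first did so at 4 h and another 24 at 8 h. It was reached already at 1 h by 2 loci and at 2 h by 7 loci, and as late as 16 h by 4 loci and 24 h by 1 locus, while 1 locus did not come down that far by 48 h. That locus, rank 29, had an S of 1.23 at 2 h and of 0.63 to 1.17 at the later times. It was singled out after its values were seen, as were the loci of rank 13, 14, 19, 21, 25, 27, 35, 36, 39, 40, 47, 50, 55, 58 and 59 below.

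**Figure D2:**
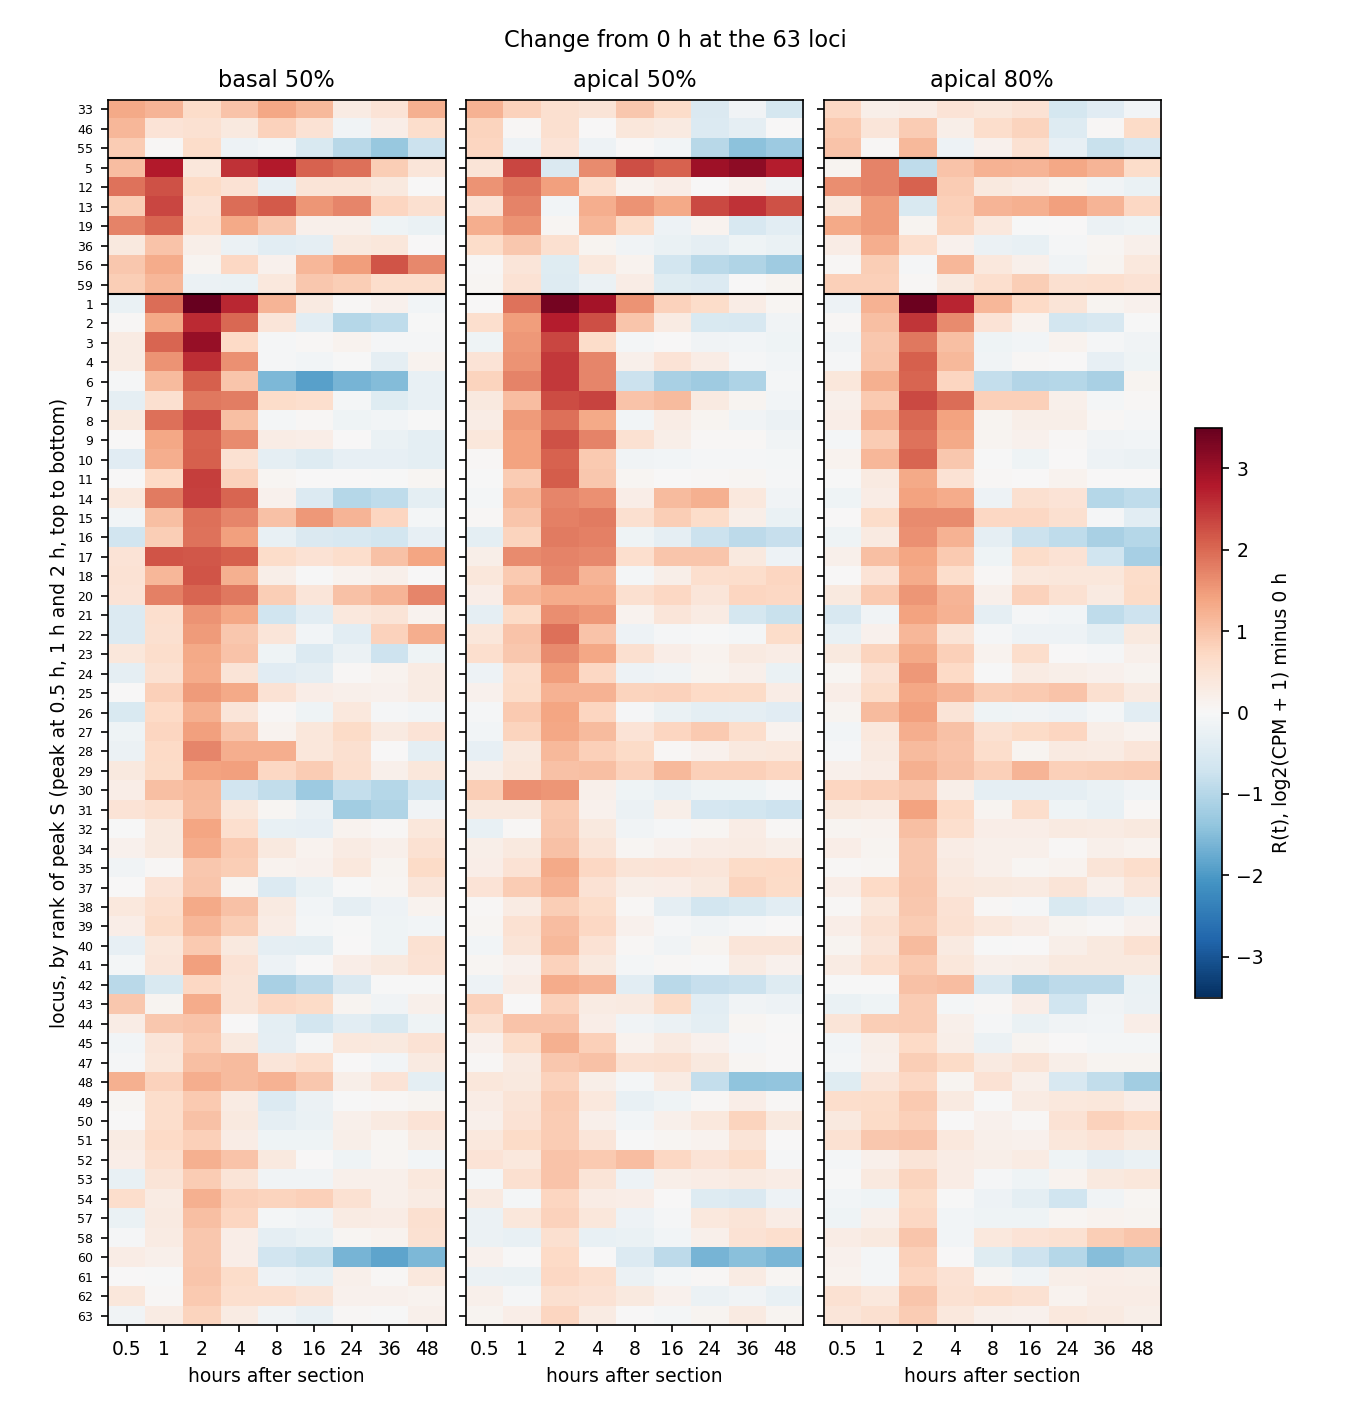
Change from 0 h, R(t) in log2(CPM + 1), for each of the 63 loci (rows, numbered by rank and grouped by time of the peak) at the 9 later times (columns) in the basal 50%, apical 50% and apical 80% series. Red is above 0 h and blue below. The block of red at 1 to 4 h is present in all 3 panels, and the rows of rank 5 and 13 are red again from 4 h after a pale or blue cell at 2 h.

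The levels were modest. At its peak the median locus stood at 8.32 CPM, with a range of 3.04 to 298 CPM, and 33 of the 63 were under 10 CPM. The median at 0 h was 3.75 CPM. Summed over the 63 loci, the tips at 2 h had 2405 ± 278 CPM in the basal 50% series, 2118 ± 179 CPM in the apical 50% series and 2063 ± 153 CPM in the apical 80% series, against 832 ± 148, 818 ± 108 and 884.9 ± 199 CPM at 0 h in the same series (SD, n = 3 each). All 9 libraries at a locus's peak lay above all 9 libraries at 0 h in 44 of the 63 loci. The choice itself favours this overlap count, which was not made over all loci, so nothing is read from it. The basal 50% series had the highest R of the 3 at the peak in 39 loci, the apical 50% series in 13 and the apical 80% series in 11. The median R at the peak was 1.31, 1.22 and 1.10 in these 3 series.

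The locus of rank 1, loc14313, had a peak S of 3.44. In the basal 50% series it stood at 22.3, 32.4 and 28.0 CPM at 2 h, against 1.67, 1.61 and 1.12 CPM at 0 h. The apical 50% series had 21.1, 26.1 and 22.9 CPM at 2 h, against 1.26, 1.75 and 1.12 CPM at 0 h. In the apical 80% series the levels were 27.6, 24.5 and 24.2 CPM at 2 h, against 0.966, 2.62 and 0.778 CPM at 0 h. No library at 2 h came near one at 0 h, and the 3 series overlapped each other at 2 h. At 0.5 h the 9 libraries were still at 0.980 to 1.63 CPM, so the rise began between 0.5 and 1 h.

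Next in rank, loc20152 had a peak S of 2.62. It stood at 82.5, 120.5 and 159 CPM at 2 h in the basal 50% series, against 32.5, 15.3 and 8.61 CPM at 0 h. In the apical 50% series it had 80.8, 100.01 and 124 CPM at 2 h, against 13.9, 20.0 and 9.01 CPM at 0 h. The apical 80% series had 93.6, 78.3 and 112 CPM at 2 h, against 10.6, 25.8 and 11.0 CPM at 0 h. The groups did not overlap, but at 4 h the replicates parted, with 128, 144 and 116 CPM in replicate C of the basal 50%, apical 50% and apical 80% series and 18.6 to 75.2 CPM in the other 6 libraries.

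**Figure D3:**
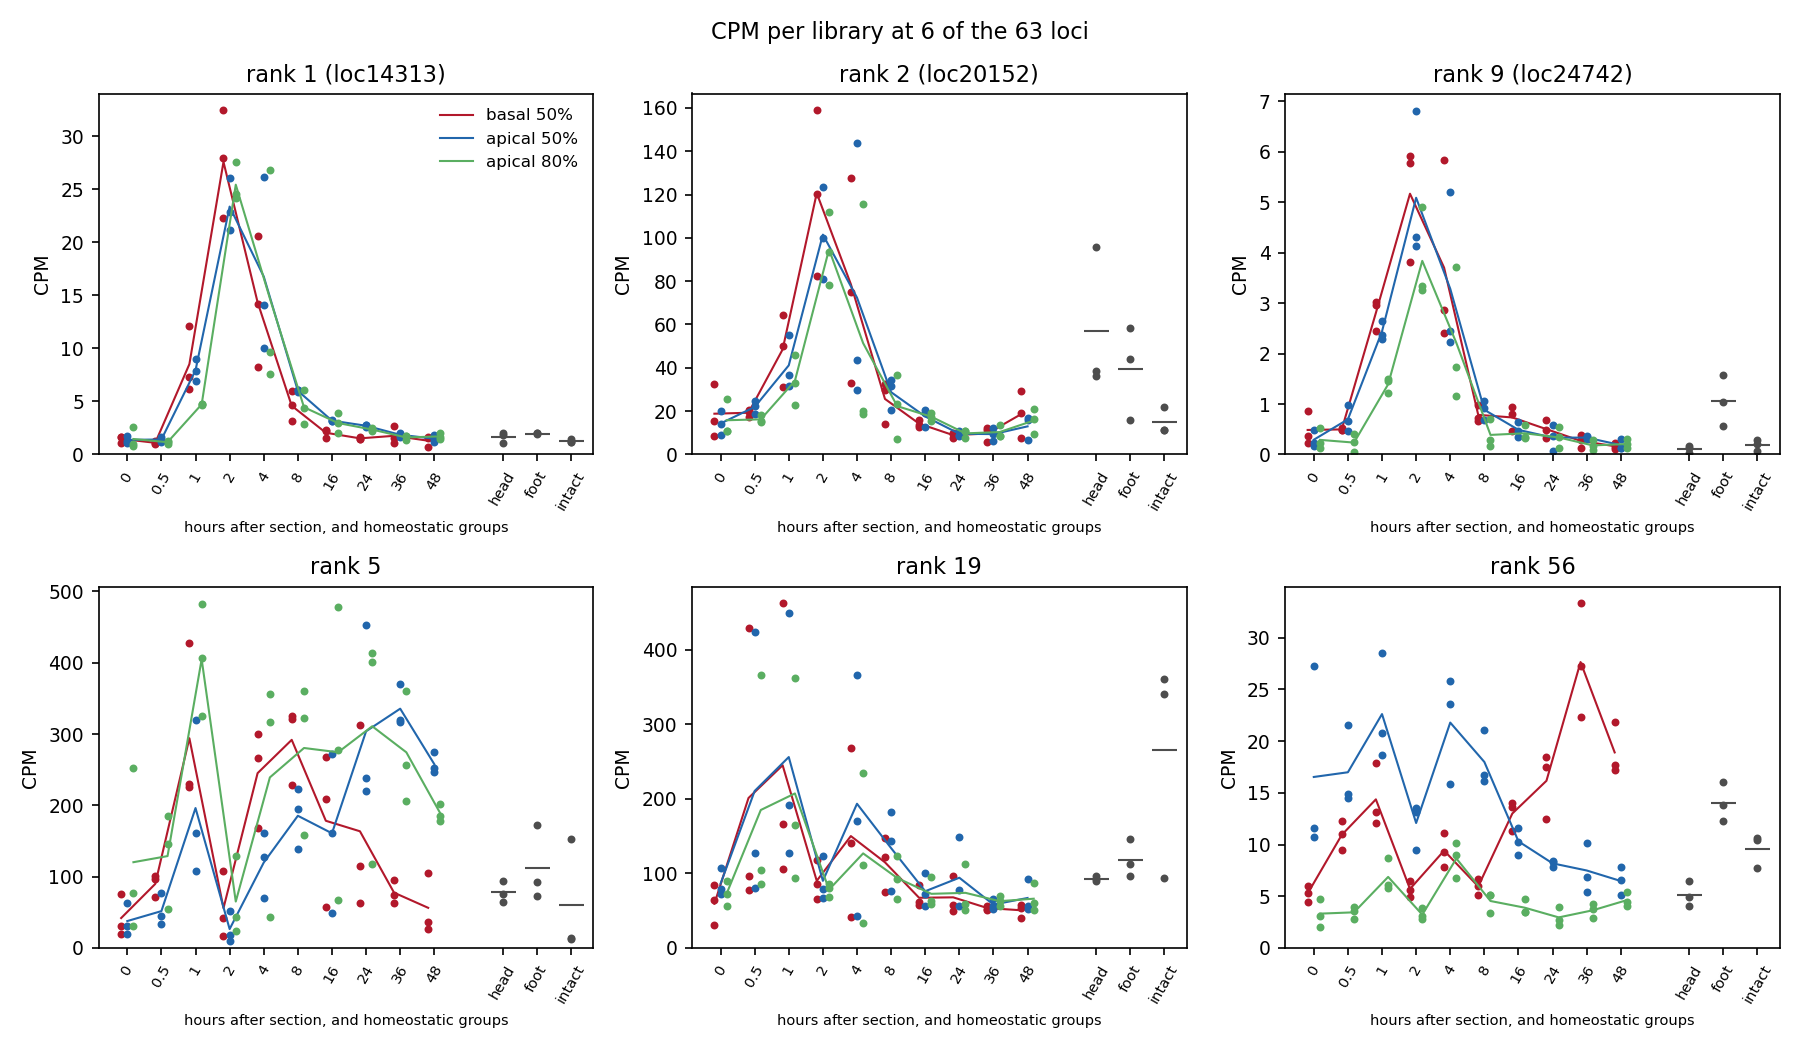
CPM per library (points) and group means (lines and bars) at 6 loci, by hours after section in the basal 50%, apical 50% and apical 80% series and in homeostatic head, foot and intact animals. Rank 1, 2 and 9 show the single pulse at 2 h. Rank 5 has a trough at 2 h, rank 19 is high in single replicates, and rank 56 separates the 3 series.

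The loci with a peak at 0.5 or 1 h did not share one course. Of the first 10, only rank 5 peaked at 1 h, with a peak S of 2.29. Its S of 2.29 at 1 h was followed by -0.32 at 2 h, and then by 1.72 at 4 h and 2.08 at 8 h, so that a trough at 2 h divided 2 periods of higher levels. In the basal 50% series its mean was 294 ± 115 CPM at 1 h, 55.9 ± 46.9 CPM at 2 h and 245 ± 68.8 CPM at 4 h (SD, n = 3 each). The apical 50% series had 51.2, 18.6 and 9.63 CPM at 2 h, all below its lowest library at 1 h, 108 CPM. One library went against this shape at 0 h: replicate A of the apical 80% series had 253 CPM, and the other 8 libraries at 0 h had 19.5 to 77.4 CPM. Rank 13 had the same shape at a lower level, with an S of 1.85 at 1 h, -0.03 at 2 h and 1.64 at 8 h. Across the 30 regenerating groups the L of these 2 loci correlated at r = 0.99, the closest pair of the 63; the points share libraries and depth. At 16 h both loci ordered the replicates alike in each series, with replicate A highest and C lowest: rank 5 stood at 268, 209.5 and 57.5 CPM in replicates A, B and C of the basal 50% series.

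Rank 19 was high in single replicates that carried the same letter in all 3 series. At 0.5 h it stood at 429, 424 and 366 CPM in replicate C of the basal 50%, apical 50% and apical 80% series and at 77.8 to 127 CPM in the other 6 libraries. At 1 h replicate B was the high one, with 462, 449.8 and 362 CPM, and the other 6 libraries had 94.3 to 191 CPM. Its same-letter deviations correlated between series at a mean r of 0.95 over 30 libraries a series, the highest value among the 63. Intact animals also differed among themselves, with 341, 93.8 and 360 CPM. The locus was called lower at 0 h than in intact animals in the basal 50% and the apical 80% series, at log2 fold changes of -2.07 and -1.77 (edgeR adjusted p = 0.00871 and 0.0381), and neither call was kept without replicate A, at adjusted p of 0.175 and 0.2; the second was also lost without replicate B or C, at 0.0533 and 0.18.

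Most other loci were raised in every letter. S at the peak, computed from one letter at a time, was at least 0.4 in all 3 letters for 56 of the 63 loci, and it was above 0 in all 3 for 62. All 3 letters entered the choice, which itself favours these 2 counts. The median S at the peak was 1.19 in letter A, 0.97 in B and 1.501 in C. When the loci were chosen again without one letter and then read in that letter, which the choice had not used, the median S was 0.34 in A over 117 loci, 0.69 in B over 76 loci and 1.00 in C over 96 loci, against medians of 1.10, 1.10 and 1.08 in the letters that chose them. An S of at least 0.4 was reached in the unused letter by 55 of 117, 53 of 76 and 65 of 96 loci, where 12.9%, 4.60% and 12.0% of the 11686 loci with a mean L of at least 2 at 2 h reached it at that time. The median was lower in each unused letter than in the letters used, and lowest in A. Of the 63 loci, 55, 50 and 48 were chosen again without A, B and C.

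Levels at 48 h were then set against those at 4 h. Both entered the choice, since the S of neither could exceed the peak S, though the level of a single series could: rank 56 had 18.9 CPM at 48 h in the basal 50% series, against 14.4 CPM at its peak time of 1 h. The counts that follow are therefore a description of the chosen loci, and nothing is read from their excess over all loci. At 48 h against 4 h, 31 of the 63 loci were called lower in the basal 50% series, where 15.2% of the 20883 loci tested were called lower (edgeR quasi-likelihood test, Benjamini-Hochberg adjusted p under 0.05). In the apical 50% series 35 were called lower, against 10.7% of all loci tested, and in the apical 80% series 26, against 11.6%. As shares of the 63 these are 49.2%, 55.6% and 41.3%. The median log2 fold change over the 63 loci was -0.89, -1.11 and -0.76 in the 3 series, where all loci tested had medians of 0.04, 0.00 and 0.02. Without replicate C, which was high at 4 h, 22 loci were called lower in the apical 50% series, where 6.27% of all loci were, and 16 in the apical 80% series, where 7.97% were. In all 3 series 19 loci were called lower, among them 8 of the first 10. Neither count was made over all loci tested, so nothing is read from them.

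Calls in the other direction were few. At 48 h, 2 loci were called higher than at 4 h in the basal 50% series, 1 in the apical 50% series and 2 in the apical 80% series, against 12.9%, 13.7% and 11.5% of all loci tested. They were 4 loci in all, of rank 50, 56, 58 and 59. Rank 58 stood at 3.59, 5.61 and 5.31 CPM at 48 h in the apical 50% series, against 3.17, 1.38 and 2.33 CPM at 4 h, and it was called there and in the apical 80% series (edgeR log2 fold change of 0.98 in the first, adjusted p = 0.0186 and 0.00305). Neither call was kept without replicate B, at 0.64 and 0.75, and the first was also lost without replicate C, at an adjusted p of 0.206. Rank 56 was called higher at 48 h in the basal 50% series, at 0.87, and lower in the apical 50% and apical 80% series, at -1.84 and -1.03 (edgeR adjusted p = 0.00409, 1.17e-08 and 0.00117).

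The locus of rank 9, loc24742, had the lowest mean of the 3 log2 fold changes among the 19 loci after loc07970, which is described next. It had 0.114, 0.143 and 0.235 CPM at 48 h in the basal 50% series, against 2.87, 2.41 and 5.83 CPM at 4 h. The groups lay apart in each series, and the log2 fold changes were -4.59 ± 0.56, -4.21 ± 0.55 and -3.52 ± 0.54 (SE, edgeR, adjusted p = 3.58e-10, 2.99e-09 and 2.73e-07). All 3 calls were kept in every alternative. The locus of rank 1 had log2 fold changes of -3.60, -3.57 and -3.22 (edgeR adjusted p = 1.29e-13, 1.14e-13 and 6.09e-12).

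The level of loc07970, rank 48, rested on few libraries. At 48 h it had 0.284, 0 and 0 CPM in the basal 50% series, against 2.52, 0.546 and 2.97 CPM at 4 h, and in the apical 80% series all 3 libraries at 48 h were at 0, against 0, 0.031 and 4.48 CPM at 4 h. With 3 reads over the 3 libraries as the floor, 0.0292 CPM, its mean was at least 51.5-fold lower at 48 h in the apical 80% series. The edgeR calls of -4.38 in the basal 50% series and -4.18 in the apical 50% series (adjusted p = 0.018 and 0.0207) were lost without replicate B and without replicate C, with adjusted p of 0.138 to 0.256. In the apical 80% series the call (adjusted p = 0.0058) was lost without either letter as well, at 0.0646 and 0.798, and on the authors' normalized values, at 0.158.

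**Figure D4:**
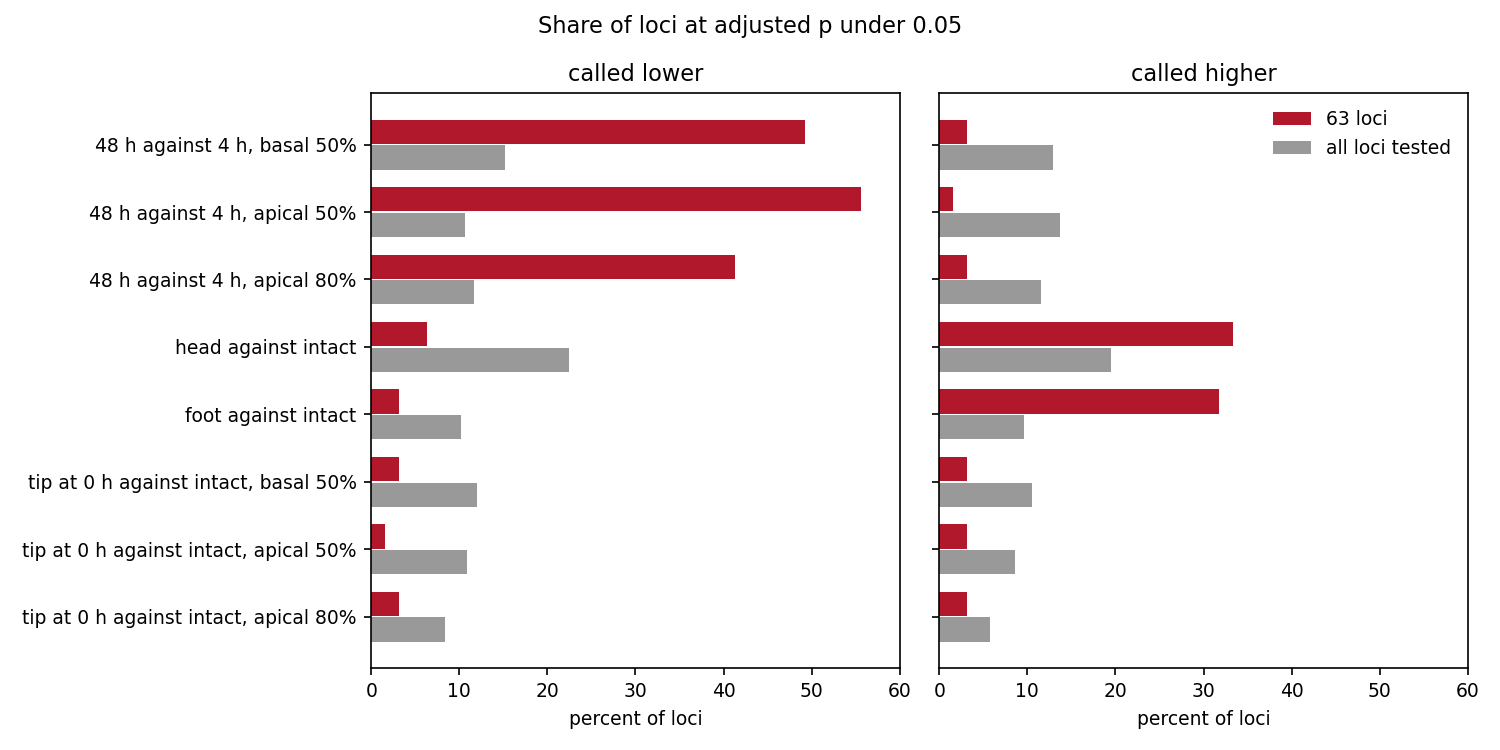
Percent of loci called lower (left) and higher (right) at an adjusted p under 0.05 in 8 comparisons, for the 63 loci (red, upper bar) and all 20883 loci tested (grey, lower bar). The red bars at 48 h against 4 h reach 49.2%, 55.6% and 41.3% on the left, and those of head and foot against intact reach 33.3% and 31.7% on the right.

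Tips at 0 h, the level from which every rise above is counted, were compared with intact animals. Since the 0 h levels entered every R and S, the counts are a description and nothing is read from their distance to the share of all loci. At 0 h, 4, 3 and 4 of the 63 loci were called in either direction against intact animals in the basal 50%, apical 50% and apical 80% series, where 22.5%, 19.5% and 14.1% of all loci tested were called (edgeR). Without any one letter these counts were between 0 and 7. The median log2 difference over the 63 loci was -0.01, -0.02 and 0.00. Of the 63 loci, 57 were called in none of the 3 series. The other 6 were of rank 6, 14, 19, 35, 56 and 60. The count of 57 was not made over all loci tested, so nothing is read from it.

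One locus, rank 60, was called higher at 0 h in all 3 series. It stood at 4.34 ± 0.34, 4.38 ± 0.41 and 4.02 ± 0.88 CPM at 0 h in the basal 50%, apical 50% and apical 80% series and at 1.94 ± 0.23 CPM in intact animals (SD, n = 3 each), with log2 fold changes of 1.26, 1.24 and 1.17 (edgeR adjusted p = 0.0218, 0.0252 and 0.0493). No library of a tip at 0 h lay as low as an intact one. The calls were lost without any one letter, at log2 fold changes of 1.09 to 1.35 and adjusted p of 0.0524 to 0.373. After its peak at 2 h this locus went below its 0 h level, with an S of -1.60 at 36 h.

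Head and foot of homeostatic animals had more of this RNA than intact animals at many of the loci. In heads 21 of the 63 loci were called higher, against 19.5% of all loci tested, and 4 were called lower, against 22.5%. In feet 20 were called higher, against 9.60% of all loci tested, and 2 were called lower, against 10.2%. The loci called lower were of rank 19, 55, 56 and 59 in heads and of rank 55 and 60 in feet. As shares of the 63 these counts are 33.3% and 6.35% in heads and 31.7% and 3.17% in feet. The median log2 fold change over the 63 loci was 0.34 in heads and 0.69 in feet, where all loci tested had medians of 0.04 and 0.04. In all, 34 loci were called higher in one or the other, 7 of them in both. These 2 counts were not made over all loci tested, so nothing is read from them.

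Replicate C was the highest in heads and in feet. The mean log2(CPM + 1) over the 63 loci was 2.91, 3.00 and 3.27 in replicates A, B and C of heads and 3.12, 3.06 and 3.33 in those of feet, against 2.58, 2.71 and 2.61 in intact animals. The 6 libraries of heads and feet all lay above the 3 of intact animals. Without replicate A, B or C, 19.0%, 22.2% and 17.5% of the 63 loci were called higher in heads, where 16.5%, 14.7% and 13.7% of all loci were, so that the share in heads came near that of all loci without replicate A. In feet 9.52%, 19.0% and 17.5% of the 63 were called higher, where 7.25%, 5.59% and 6.99% of all loci were, and here too the shares lay closest without replicate A. The choice held head and foot within 2 of each other in L and placed no limit on either against intact animals. The part of replicate C in the size of the difference was not tested beyond these counts.

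Of the first 10 loci, 5 were called higher in heads and 4 in feet. Rank 2 had 38.6, 36.2 and 95.6 CPM in heads and 44.0, 15.9 and 58.2 CPM in feet, against 11.4, 21.8 and 11.5 CPM in intact animals. Heads lay above intact animals in every library, feet overlapped them, and the log2 fold changes were 1.84 ± 0.51 and 1.46 ± 0.50 (SE, edgeR, adjusted p = 0.00188 and 0.0288). Without replicate C they were 1.112 and 0.95, with adjusted p of 0.126 and 0.304, and without replicate A the call in feet was lost as well, at 0.217. Rank 6 had log2 fold changes of 1.19 in heads and 2.00 in feet (edgeR adjusted p = 0.0335 and 0.000759), which without replicate C were 0.61 and 1.34 and no longer called; the call in heads was also lost without replicate A, at an adjusted p of 0.168. Rank 4 had 0.61 and 0.98 (edgeR adjusted p = 0.0424 and 0.00195), also not called without replicate A or without replicate C.

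Other loci were called at one end, or more strongly at one. Rank 9 had 1.05, 0.564 and 1.58 CPM in feet, against 0.198, 0.294 and 0.0656 CPM in intact animals. Every foot library lay above the intact ones, with a log2 fold change of 2.54 (edgeR adjusted p = 0.000309; 0.0743 without replicate C), while heads had 0.177, 0.134 and 0.0326 CPM. Rank 7 had a log2 fold change of 1.42 in heads (edgeR adjusted p = 0.00347), and rank 40 had 1.14 in heads and 0.59 in feet (edgeR adjusted p = 3.49e-06 and 0.0308); the calls of rank 7 and rank 40 in heads were kept in every alternative. Rank 25 was called in feet at 1.04 (edgeR adjusted p = 0.000163; 0.112 without replicate A).

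The clearest exception was the locus of rank 55, which was at 0 CPM in all 3 foot libraries and at 0.118, 0.134 and 0 CPM in heads, against 3.74, 1.57 and 0.952 CPM in intact animals. With the floor of 3 reads over the 3 foot libraries, 0.029 CPM, its mean was at least 72.0-fold lower in feet. In heads the log2 fold change was -4.61 (edgeR adjusted p = 0.000514), and this call was kept in every alternative. Its peak was at 0.5 h, with an S of 0.88, and its S was -1.19 at 36 h.

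**Figure D5:**
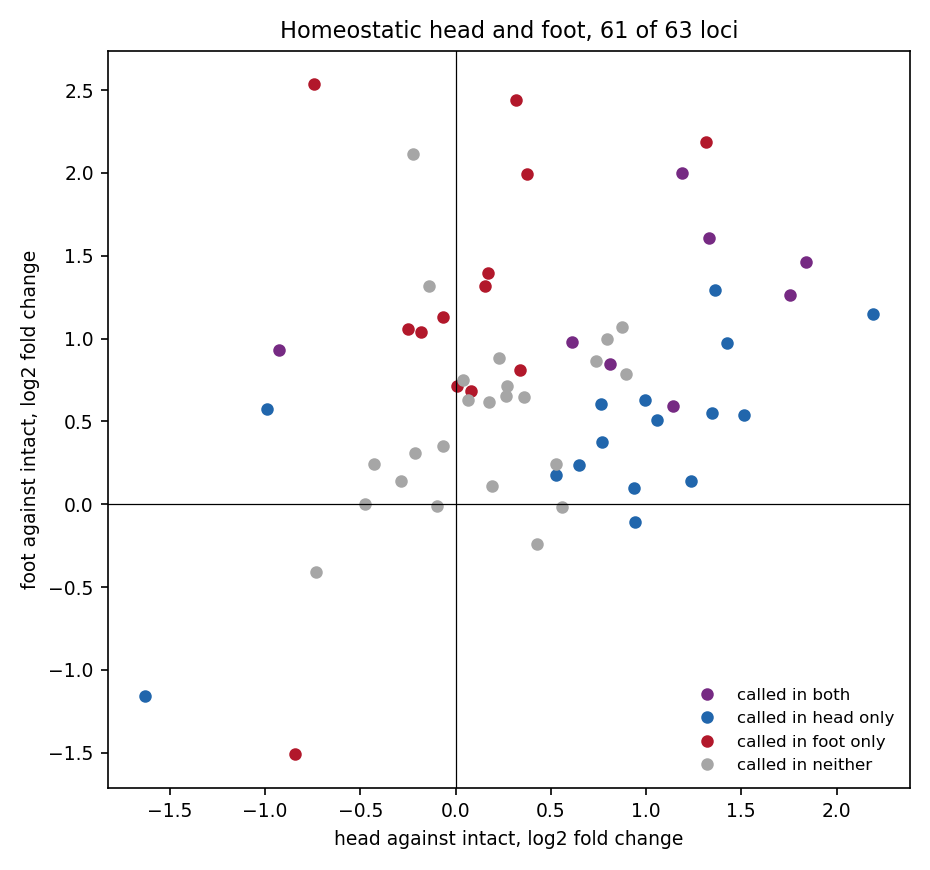
Log2 fold change of heads against intact animals (horizontal axis) and of feet against intact animals (vertical axis) for 61 of the 63 loci, coloured by whether the edgeR adjusted p was under 0.05 in heads, in feet, in both or in neither. Rank 48, at 0 in all head libraries, and rank 55, at 0 in all foot libraries, are not drawn. Of the loci called higher, 21 were called in heads and 20 in feet. Both calls were made at 7 loci, a count that was not made over all loci tested.

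The direction of regeneration and the level of the section were compared through the change itself. The early change was the mean of 0.5, 1 and 2 h minus 0 h, and it was set side by side between series that share the section level or the direction. The choice used these same values and asked for a rise in each series, so likeness between the series was built into the 63 loci, and their counts show nothing about it. No locus was called between the apical 50% and the basal 50% series, and none between the apical 50% and the apical 80% series: edgeR called 0% of the 20883 loci tested in either comparison. At an unadjusted p under 0.05, edgeR gave 467 and 848 loci, 1 and 2 of them among the 63, and DESeq2 called 7 and 5 of all loci, none of the 63. The early change differed by a median log2 of -0.04 between apical 50% and basal 50%, with a range of -1.78 to 0.79 over the 63 loci, and by 0.20 between apical 50% and apical 80%, with a range of -0.59 to 1.00. The median standard error was 0.41, which limits what could be detected at a single locus. On simulated data the test called 66 of 100 loci whose early change, apical 50% minus basal 50%, differed by a log2 of 1, with 12 false calls. The changed loci were drawn from those with a mean above 1 CPM, and 100 more were changed by a log2 of 2. The simulated libraries held no deviations shared by letter, unlike the data. The share that the test would find among the 63 loci was not measured.

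At 0 h the apical 50% tips differed from the basal 50% tips at 1 of the 63 loci, where 0.814% of all loci tested were called, and from the apical 80% tips at 1, where 2.69% were called. With the replicates paired as a replicate block within each time, 2 loci were called between the apical and the basal side of the mid-gastric cut, where 1.89% of all loci were; the added locus was rank 59. The 0 h levels entered the choice here too. The locus called in both was rank 56. It stood at 27.2, 10.7 and 11.6 CPM at 0 h in the apical 50% series, against 6.01, 5.34 and 4.43 CPM in the basal 50% series and 4.76, 3.13 and 2.07 CPM in the apical 80% series. The log2 differences were 1.62 ± 0.25 against basal 50% and 2.24 ± 0.26 against apical 80% (SE, edgeR, adjusted p = 1.32e-05 and 5.9e-10), and replicate A of the apical 50% series was the highest library.

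The late change, the mean of 24, 36 and 48 h minus 0 h, was called at 2 of the 63 loci between apical 50% and basal 50%, against 9.66% of all loci tested, and at 1 between apical 50% and apical 80%, against 0.699%. With a replicate block within each time, which the letters bear out between apical 50% and basal 50% tips at 0 and 36 h but not at 24 and 48 h, 10 of the 63 were called in the first comparison, where 17.3% of all loci were. All these levels entered the choice. The locus of rank 56 was called in both. At 36 h it stood at 6.88, 10.1 and 5.44 CPM in the apical 50% series, against 22.4, 27.2 and 33.3 CPM in the basal 50% series and 3.75, 4.27 and 2.91 CPM in the apical 80% series. The side of the mid-gastric cut that was higher at 0 h was thus the lower one at 36 h. Its late change differed by a log2 of -3.13 between apical 50% and basal 50% (edgeR adjusted p = 7.43e-14), a call kept in every alternative, and by -1.22 between apical 50% and apical 80% (edgeR adjusted p = 0.0198), a call lost without any one letter, with adjusted p of 0.123 to 0.426. In homeostatic animals it had 14.0 ± 1.91 CPM in feet, 5.17 ± 1.25 CPM in heads and 9.58 ± 1.58 CPM in intact animals (SD, n = 3 each). No other locus had a profile close to it: the nearest of the 63, rank 59, correlated at r = 0.48 over the 30 regenerating groups. Apart from rank 36 in the late change, the other 61 loci were called in none of the 6 comparisons between series without the block. This count was not made over all loci tested, so nothing is read from it.

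The locus sums that chose the loci do not say which transcript sequence of a locus carried the rise. Of the 63 loci, 22 have 1 sequence and 41 have 2 or more, up to 10. At 37 of these 41, the share of each sequence could be tested at 2 h against 0 h over the 3 series together. edgeR's test of differential usage called 12 of the 37, against 16.1% of the 11000 loci tested, and limma's test on voom values called 15, against 17.3%; 11 were called by both. Without replicate C edgeR called 3, or 8.11% of the 37, where 10.8% of all loci were called, and limma called 9, or 24.3%, where 16.2% were. Without replicate A they called 7 and 8, where 8.05% and 7.45% of all loci were called. Without replicate C the share of the 37 thus lay below that of all loci in edgeR's test and above it in limma's. Without replicate A it lay above in both, at 18.9% and 21.6%. The shares within a locus did not enter the choice, but the locus sums of the same libraries at 2 h and 0 h did. A sum that rises through 1 sequence of several also moves the share of that sequence. These counts are therefore a description of the chosen loci, and nothing is read from their distance to the share of all loci. On simulated data of 10804 loci, edgeR's usage test found 192 of 200 changed loci but also called 258 unchanged ones, and limma's found 190 with 33 unchanged ones called, so single calls by the first are not reliable. The largest change of a share had a median of 5.01 percentage points over the 41 loci and reached at least 10 points in 13.

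Of the loci called by both tests, 7 had a share that moved by at least 10 points. At rank 27, the sequence that moved furthest took 42.2% to 49.0% of the locus at 2 h, with a median of 46.0% over 9 libraries, against 58.8% to 86.4% at 0 h, with a median of 70.1% (edgeR adjusted p = 1.7e-17). At rank 47 such a sequence took 34.1% to 42.5% at 2 h, against 50.4% to 66.5% at 0 h (edgeR adjusted p = 4.87e-15). In both loci the 9 libraries at 2 h lay apart from the 9 at 0 h. Libraries of one letter and time shared deviations between the series, and no usage fit paired them. These and the other adjusted p of usage may therefore be too small. At rank 39 a sequence took 3.41% to 22.9% at 2 h, with a median of 4.97%. At 0 h it had 15.8% to 60.4%, with a median of 44.7%, so that the ranges overlapped. Its mean was only 0.471 CPM at 0 h and 0.326 CPM at 2 h. At rank 1 the minor sequence took 14.8% to 27.9% at 2 h, against 0% to 10.6% at 0 h. Its mean at 0 h was only 0.0917 CPM, so its share there rests on few reads. At rank 21 a sequence took 41.3% to 53.6% at 2 h, against 50.8% to 90.8% at 0 h, and here the ranges overlapped. At rank 40 a sequence took a median of 51.7% at 2 h, against 43.5% at 0 h, also with overlap. At rank 3 a sequence took 83.2% to 100% at 2 h, with a median of 85.7%. Over the 8 libraries at 0 h that had reads it took 0% to 100%, with a median of 0%, so these ranges overlapped too. The group means of this locus at 0 h were only 0.147 to 0.301 CPM in the 3 series. Its shares at 0 h thus rest on few reads, and the size of the change is uncertain.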

How the data were processed

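The authors deposited unnormalized counts of reads for 79774 transcript sequences, which were summed to 25879 loci by the locus identifier. The authors' deposited normalized signal of 40479 of the sequences served as an alternative. The submitters' processing notes name cutadapt 1.11, Salmon 0.7.2 and DESeq2 without roles, so the whole-number counts may be rounded estimates. The reference transcriptome is not given in the sources used here. Reads of near-identical loci may have been split by the counting, and the kit was directional, per the labels' protocols.

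CPM used column sums. Tests were fitted in R 4.3.3 with edgeR 4.0.16 (filterByExpr, which kept 20883 loci, all 63 among them; TMM factors 0.876 to 1.17; quasi-likelihood F-test with legacy = TRUE and a trended dispersion), in one fit of 99 libraries with one coefficient per group. The call was a Benjamini-Hochberg adjusted p under 0.05 over all loci, and p-values measure the spread between triplicates of pooled animals. The SE is the fold change over the root of F. Sequence usage was tested with edgeR's diffSpliceDGE and, added after it called unchanged loci in simulated data, limma 3.58.1 diffSplice on voom values. Alternatives were RLE size factors, DESeq2 1.42.0, no filter beyond 1 read, the newer quasi-likelihood method, replicate blocks, each replicate letter left out, the 0 h libraries of replicate A left out, a log2 fold minimum of 1, and limma on log2(normalized value + 1). The package data.table (1.17.8), Python 3.11.15, NumPy 2.4.6, pandas 2.3.3 and matplotlib 3.10.9 were also used.

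The main test was checked on simulated data of 20380 loci. There, and in the simulation of sequence usage, all libraries were drawn independently, without the same-letter deviations seen in the data. In head against intact it called 75 of 100 loci changed by a log2 of 1 and 97 of 100 changed by 2, with 4 false calls, and in the early change 66 and 95 of 100, with 12 false calls. Same-letter deviations correlated between apical 50% and basal 50% tips at 0.26 to 0.51 at 0 h and above 0.1 in each pair at 0.5, 1 and 2 h, which was taken as pairing for those times; the pairing comes from the data, not from the labels. The members, lists and tests were chosen with earlier results of these data known. Identifiers were printed for the 2 highest peak S and for the 2 lowest mean log2 fold changes of 48 h against 4 h among loci called lower in all 3 series; the first 10 by rank, loci above intact at 0 h in all 3 series and the leading locus of each comparison between series were described by rank. The floor was 3 reads over a group, and it covers counting error only.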

Additional observations from a re-analysis of the deposited data

Results flagged for a closer look

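The late change (mean of 24, 36 and 48 h minus 0 h) of the locus of rank 56 differed between series by a test of the difference itself. It was lower in the apical 50% series than in the basal 50% series by a log2 of -3.13 (edgeR quasi-likelihood test, adjusted p = 7.43e-14), and lower than in the apical 80% series by -1.22 (edgeR adjusted p = 0.0198). At the locus of rank 36 the late change differed by -0.74 between apical 50% and basal 50% (edgeR adjusted p = 0.0499). This locus had 1.60, 1.67 and 1.67 CPM at 48 h in the apical 50% series, against 2.70, 2.18 and 2.26 CPM in the basal 50% series. Its call was lost under the newer quasi-likelihood method, on the authors' normalized values, with a log2 fold minimum of 1, without the 0 h libraries of replicate A and without any one letter, at log2 differences of -0.38 to -0.89. The levels at 0 h and at the late times entered the choice of the loci.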

How the results depend on the processing

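Of 408 recomputed single values, 349 kept their direction and their side of the threshold, 59 kept the direction but were no longer called, and none reversed. The counts below are of the 63 loci. Without one replicate letter, the rule took 76 to 117 loci and the median S read in the unused letter was 0.34 to 1.00, against 1.12 in all letters. Other settings of the rule took 56 to 73 loci. At 0 h against intact, leaving out a letter, or the 0 h libraries of replicate A alone, gave 1 to 6 loci in the basal 50% series, 0 to 4 in the apical 50% series and 2 to 7 in the apical 80% series. The same omissions gave 13 to 24 loci in heads and 8 to 23 in feet. For 48 h against 4 h they gave 17 to 28 in the apical 80% series and 22 to 35 in the apical 50% series. In the late change they gave 1 to 3 in apical 50% against basal 50% and 0 in that against apical 80%. Sequence usage had 3 to 9. Calls are in either direction. Without a letter, 31.5% to 38.0% of all loci were called in heads and 12.0% to 16.4% in feet. At 0 h against intact the shares of all loci were 10.5% to 18.8%, 7.70% to 16.8% and 5.23% to 12.6%. For 48 h against 4 h they were 13.6% to 21.4% in the apical 80% series and 15.4% to 20.7% in the apical 50% series. In the late change they were 5.16% to 8.92% and 0.21% to 0.31%.

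Letters did not pair the samples in the comparisons with intact animals, between 48 h and 4 h, between apical 50% and apical 80% at 0 h, or between apical 50% and basal 50% at 24 and 48 h of the late change, where a same-letter correlation was under 0.1. A replicate block within time gave 13, 9 and 8 loci at 0 h against intact, where 34.4%, 30.1% and 25.4% of all loci were called. It gave 36 in feet, where 29.8% of all loci were called. In the late change of apical 50% against basal 50% it gave 10, where 17.3% were. At 0 h it gave 2 against each of basal 50% and apical 80%, where 1.89% and 8.27% of all loci were called. A single replicate block over all libraries moved no count by over 1.5 times. Without the 0 h libraries of replicate A there were 2 loci at 0 h against intact in the basal 50% series, 0 in the late change of apical 50% against apical 80%, and 7 in sequence usage. A fold minimum left 1 locus at 0 h against intact in the apical 50% series, 14 in heads and 1 in the late change against basal 50%. The authors' normalized values gave 1 at 0 h against intact in the apical 80% series and 1 in that late change, and the newer quasi-likelihood method gave 1 there. For these last settings no share of all loci is given, so nothing is read from their counts. Where no cause is stated, the cause was not tested. At 3 libraries a group and 26.4 reads per CPM in the smallest library, loci under 1 CPM in a group have the least certain folds.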
